A study of Mus musculus with 6 samples.

Results

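The core genes of planar cell polarity (PCP) were followed in the embryonic mouse cochlea with and without DAPT, an inhibitor of the gamma-secretase that Notch signalling needs. Membership came from a named list and not from the measurements. It held *Vangl1*, *Vangl2*, *Celsr1*, *Celsr2*, *Celsr3*, *Prickle1*, *Prickle2*, *Ptk7*, *Scrib* and *Dact1*, so 10 genes were listed. Of these, 9 were measured, among 20259 named genes in all, and *Prickle1* was not analysed here. In none of the 9 did the DAPT and control cultures differ at an adjusted p under 0.05, and neither did any other gene (0.0% of all genes). *Celsr3* was the 1 member with an unadjusted p under 0.05, beside 7.86% of all genes. Its mean log2 signal was higher in DAPT (0.26, SE 0.10, n = 3 experiments). *Celsr1* and *Celsr2*, in contrast, differed by more than 1 log2 unit between experiments, in control and DAPT cultures alike.

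The tissue was cochlear epithelium of mouse embryos at E15.5, on a mixed C57BL/6 and CD-1 background. The study's Results section calls it wild type, while its culture methods name embryos with a GFP reporter transgene. Before culture, the tissue was treated with enzymes to free the duct and its spiral ganglion from their surroundings. Explants were cultured with attached mesenchyme and spiral ganglion in a medium with EGF and FGF that both groups shared. After culture, a further treatment with collagenase and dispase served to isolate the epithelium. In each of 3 experiments, 1 pool of explants received 3.33 µM DAPT and 1 pool received 0.013% DMSO, the vehicle, for 23 h in experiment 1, 19 h in experiment 2 and 24 h in experiment 3. These times are those of the sample labels, and the range that the study gives in its Results section does not cover all of them. RNA of each pool was hybridised to its own exon array, giving 6 arrays, and the values are log2 signals on which a difference of 1 is a doubling. Each pool mixes hair cells (HCs), supporting cells (SCs) and the neighbouring non-sensory epithelium, so fewer cells of a type and less RNA per cell cannot be told apart. All 9 epithelial markers measured, keratins, claudins and *Epcam* among them, lay above the median signal of all genes, and so did all 8 mesenchymal markers and 4 of 11 neuronal markers.

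PCP is the shared orientation of cells within the plane of an epithelium. Frizzled and Dishevelled proteins gather on one side of each cell, Vangl and Prickle proteins on the opposite side, and the Celsr cadherins bridge the membranes of neighbouring cells and hold both complexes at the junction. In the cochlea, the pathway orients the hair bundles of HCs and takes part in the extension of the sensory epithelium along its length. Mouse mutants of *Vangl2*, *Celsr1*, *Scrib* and *Ptk7* are known for misoriented hair bundles.

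Promoter windows, the 250 bases before an annotated transcript start, were read from a table of RefSeq promoters on GRCm38.p6. Windows were found for 6 members, with 9 windows among them. The sequence table used here held no window for *Vangl1*, *Celsr1* and *Scrib*. The words searched, on both strands, were TGGGAA (the core word bound by RBP-J, the DNA-binding partner of Notch), CAGCTG and CAGATG (both E-box words of the kind bound by ATOH1 and related bHLH factors). TGGGAA occurred in 21.6% of all 32851 windows, CAGCTG in 13.0% and CAGATG in 14.4%. Of the 6 members, 3 held TGGGAA (*Vangl2*, *Ptk7* and *Prickle2*), 2 held CAGCTG (*Prickle2* and *Dact1*) and 2 held CAGATG (*Celsr2* and *Prickle2*). Counted by window as in the background, of which *Prickle2* has several, 3 of 9 held TGGGAA, 3 of 9 CAGCTG and 2 of 9 CAGATG. In 1 window of *Prickle2*, CAGCTG and TGGGAA overlapped. The windows of *Vangl2* and *Ptk7* are shown for their match to the RBP-J word, printed in capitals, and that of *Celsr3*, the member with the largest difference in DAPT, because it held none of the words. The *Vangl2* window lies at chr1:172027296-172027545 on the minus strand, that of *Ptk7* at chr17:46629505-46629754 on the minus strand and that of *Celsr3* at chr9:108825795-108826044 on the plus strand. All are written 5′ to 3′ on the gene's strand, and the capitals in *Vangl2* are the word as read on the opposite strand.
Vangl2: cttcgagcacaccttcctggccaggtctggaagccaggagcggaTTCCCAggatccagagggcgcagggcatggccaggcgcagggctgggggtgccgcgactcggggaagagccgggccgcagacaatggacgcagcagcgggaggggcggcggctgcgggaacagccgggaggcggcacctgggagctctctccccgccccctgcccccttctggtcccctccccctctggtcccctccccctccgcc
Ptk7: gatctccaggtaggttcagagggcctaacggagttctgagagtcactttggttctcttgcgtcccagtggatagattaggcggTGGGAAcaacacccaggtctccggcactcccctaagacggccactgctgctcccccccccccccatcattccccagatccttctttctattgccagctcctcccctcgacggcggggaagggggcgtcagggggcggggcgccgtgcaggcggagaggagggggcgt
Celsr3: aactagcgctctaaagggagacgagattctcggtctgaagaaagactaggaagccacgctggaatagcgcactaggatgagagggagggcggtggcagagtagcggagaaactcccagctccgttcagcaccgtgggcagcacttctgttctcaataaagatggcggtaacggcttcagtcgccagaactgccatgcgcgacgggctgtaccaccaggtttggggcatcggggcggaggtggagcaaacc
These matches describe letters only. No measurement of binding was made.

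The treatment was first checked with genes whose response to Notch inhibition is well known. *Atoh1*, the transcription factor that starts HC differentiation, was higher in DAPT by 1.18 (SE 0.08, adjusted p = 0.0591), and *Pou4f3*, needed for HC survival, by 1.11 (SE 0.14, adjusted p = 0.169). *Hey1*, a direct Notch target, differed by -1.29 (SE 0.15, adjusted p = 0.129), and *Sox2*, a marker of SCs and their precursors, by -0.85 (SE 0.16, adjusted p = 0.315). At an unadjusted p under 0.05, all 15 HC markers were higher, with a median difference of 0.68, and all 10 Notch target and pro-sensory genes were lower, with a median of -0.80. Several of these genes were picked by the study from the same arrays, so their direction is not independent evidence. With 3 experiments, no gene of the 20259 passed an adjusted p of 0.05 (0.0%, limma with Benjamini-Hochberg adjustment), 0.0591 being the smallest value reached. Without adjustment, 7.86% of all genes had a p under 0.05, 5.27% higher and 2.59% lower in DAPT.

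Against that background, 1 of the 9 PCP core genes was higher and 0 were lower at an unadjusted p under 0.05. The median difference between DAPT and control over the 9 genes was -0.03, against 0.02 over all genes, and the median absolute difference was 0.08, against 0.07. The estimates were below 0 for 6 members and above 0 for 3. The 95% confidence intervals of all members together ran from -0.37 to 0.50, and 8 of the 9 held 0. The exception was *Celsr3*.

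**Figure D1:**
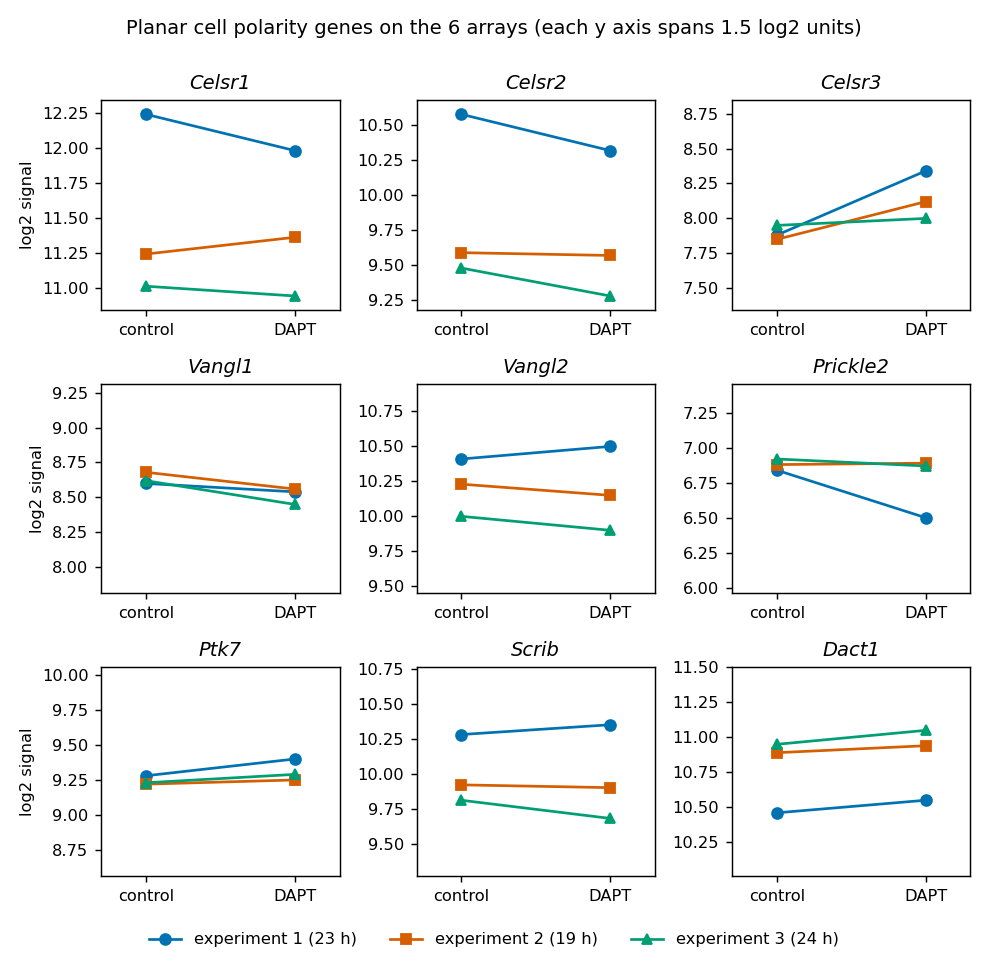
Log2 signal of each of the 9 measured PCP core genes on the 6 arrays, with control and DAPT pools of one experiment joined by a line. The lines run close to level in most panels, while *Celsr1* and *Celsr2* sit highest in experiment 1 in both groups.

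Among the 9 members, the atypical cadherins of the Celsr family had the largest difference with DAPT and the largest differences between experiments. *Celsr3*, best known for guiding axon tracts in the brain, had log2 signals of 7.88, 7.85 and 7.95 in the controls of experiments 1, 2 and 3 and 8.34, 8.12 and 8.00 in the DAPT pools. Every DAPT pool lay above every control pool, although in experiment 3 the pools were almost level, and the differences were 0.46, 0.27 and 0.05. The mean difference was 0.26 (SE 0.10, 95% confidence interval 0.01 to 0.50, unadjusted p = 0.0428, adjusted p = 0.612). Without experiment 1 it was 0.16 (unadjusted p = 0.165), without experiment 2 it was 0.25 (unadjusted p = 0.129), and in the fit that ignores the pairing of pools it was 0.26 (unadjusted p = 0.0512). The unadjusted p was under 0.05 in 8 of 20 alternative analyses, and the difference was positive in all 20, from 0.16 to 0.36. These analyses reuse the same arrays. With every DAPT pool above every control pool, leaving out pools could not turn the sign, so its constancy adds no evidence. Among neuronal markers, listed because *Celsr3* is expressed in neurons, 0 of 11 had an unadjusted p under 0.05, their mean signal ran from 7.28 to 8.31 in control and from 7.49 to 8.31 in DAPT pools, and their median differences in experiments 1, 2 and 3 were 0.18, 0.06 and 0.05. HC markers had median differences of 0.54, 0.71 and 0.75 in the same order. The part of neuronal RNA or of the added HCs in the *Celsr3* values was not tested.

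*Celsr1*, mutated in the Crash and Spin cycle mice with their misoriented hair bundles, had signals of 12.24, 11.24 and 11.01 in the controls and 11.98, 11.36 and 10.94 in the DAPT pools. The groups overlapped throughout, and both pools of experiment 1 stood above the other 4. The mean difference with DAPT was -0.07 (SE 0.10, adjusted p = 0.920), with -0.26, 0.11 and -0.07 in the 3 experiments. *Celsr2*, which acts with *Celsr3* in orienting the cilia of ependymal cells, had 10.58, 9.59 and 9.48 in the controls and 10.32, 9.57 and 9.28 in the DAPT pools. Its DAPT value was the lower one in each experiment, but the groups overlapped, and both pools of experiment 1 again stood above the other 4. The difference was -0.16 (SE 0.08, 95% confidence interval -0.37 to 0.04, unadjusted p = 0.101, adjusted p = 0.711), and a second probe cluster of *Celsr2* gave -0.17. The interval for *Celsr2* lay mostly below 0 and that for *Celsr3* above it, but the difference between them was not tested.

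The Vangl genes encode membrane proteins that recruit Prickle to one side of the cell. *Vangl2*, whose Looptail mutation is a classic cause of misoriented hair bundles, had signals of 10.41, 10.23 and 9.998 in the controls and 10.50, 10.15 and 9.90 in the DAPT pools. The groups overlapped, and the pools of each experiment lay next to each other, highest in experiment 1 and lowest in experiment 3. The difference with DAPT was -0.03 (SE 0.08, 95% confidence interval -0.23 to 0.17, adjusted p = 0.971), with 0.10, -0.08 and -0.10 in the 3 experiments. *Vangl1*, its paralogue, had 8.60, 8.68 and 8.62 in the controls and 8.54, 8.56 and 8.45 in the DAPT pools. Every DAPT pool was below every control pool, with differences of -0.06, -0.13 and -0.17. The mean difference was -0.12 (SE 0.07, 95% confidence interval -0.30 to 0.07, unadjusted p = 0.166, adjusted p = 0.782), and it did not pass the test despite the separation of the groups.

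*Prickle2*, a cytoplasmic LIM-domain protein that binds Vangl, was the one member below the median signal of all genes (7.78). Its signals were 6.84, 6.88 and 6.92 in the controls and 6.50, 6.89 and 6.87 in the DAPT pools. The single DAPT pool of experiment 1 was low and the other 5 values lay between 6.84 and 6.92. The difference of -0.12 (SE 0.10, adjusted p = 0.824) was accordingly 0.00 when that pool was left out.

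The remaining members are linked to the core by binding. *Ptk7*, a receptor of the tyrosine kinase family without kinase activity, had signals of 9.28, 9.22 and 9.23 in the controls and 9.40, 9.25 and 9.29 in the DAPT pools. Its DAPT value was the higher one in each experiment, by 0.12, 0.03 and 0.06, and the groups overlapped. The difference was 0.07 (SE 0.07, 95% confidence interval -0.11 to 0.25, adjusted p = 0.879). *Scrib*, a scaffold protein of the basolateral membrane that binds Vangl2, had 10.28, 9.92 and 9.81 in the controls and 10.35, 9.90 and 9.68 in the DAPT pools. The order followed the experiments and not the treatment, and the difference was -0.03 (SE 0.08, adjusted p = 0.971). *Dact1*, which binds Dishevelled, had 10.46, 10.89 and 10.95 in the controls and 10.55, 10.94 and 11.05 in the DAPT pools. It ran the other way, lowest in experiment 1, and DAPT exceeded control by 0.09, 0.05 and 0.10 (mean 0.08, SE 0.07, 95% confidence interval -0.10 to 0.26, adjusted p = 0.859).

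**Figure D2:**
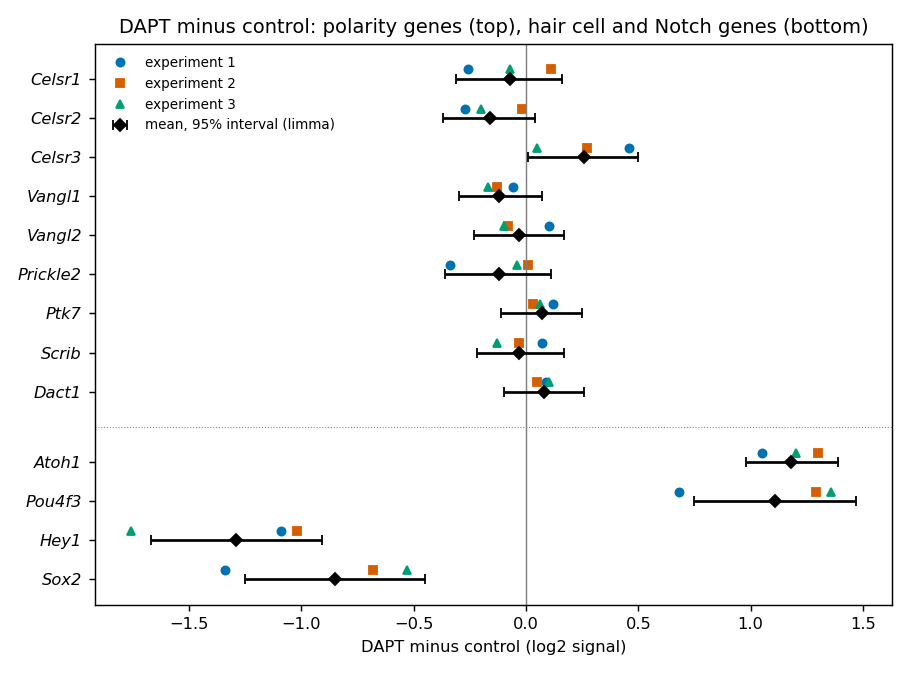
Difference between DAPT and control in log2 signal for each PCP core gene (top) and for *Atoh1*, *Pou4f3*, *Hey1* and *Sox2* (bottom), with the 3 experiments as points and the fitted mean with its 95% confidence interval. Of the PCP core genes, *Celsr3* alone has an interval that leaves out 0, running from 0.01 to 0.50.

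DAPT was higher in all 3 experiments for 3 members (*Celsr3*, *Ptk7* and *Dact1*) and lower in all 3 for 2 (*Vangl1* and *Celsr2*). Over all genes, 29.6% kept 1 sign in the 3 experiments, 19.1% higher and 10.5% lower. The groups did not overlap in 1 member that was higher (*Celsr3*) and 1 that was lower (*Vangl1*), beside 4.94% of all genes higher and 2.35% lower, or 7.29% in either direction.

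The range of the 3 experiment means exceeded the absolute difference with DAPT in 7 of the 9 members, beside 85.9% of all genes, so this count does not set the members apart. The median of that range was 0.50 log2 units over the members and 0.22 over all genes. The means of experiments 1, 2 and 3 were 12.11, 11.30 and 10.98 for *Celsr1* (adjusted p = 0.0237 for the experiment term) and 10.45, 9.58 and 9.38 for *Celsr2* (adjusted p = 0.0211). For *Scrib* they were 10.31, 9.91 and 9.75 (adjusted p = 0.0540), for *Vangl2* 10.46, 10.19 and 9.95 (adjusted p = 0.0747) and for *Dact1* 10.50, 10.92 and 11.00 (adjusted p = 0.0529). Experiment 1 was thus the highest for 4 of these genes and the lowest for *Dact1*. In all, 2 of 9 members passed an adjusted p of 0.05 for the experiment term, beside 5.17% of all genes. Both calls were lost when experiment 1, the control pool of experiment 1, the DAPT pool of experiment 1 or the DAPT pool of experiment 3 was left out, and 1 was lost without the control pool of experiment 3.

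Marker genes of several cell types moved with the experiments. The mean signal of 8 mesenchymal markers was 8.62, 9.32 and 9.77 in the controls of experiments 1, 2 and 3 and 8.73, 9.35 and 9.83 in the DAPT pools, and all 8 were lowest in experiment 1. The 11 neuronal markers had means of 7.28, 8.21 and 8.31 in the controls and 7.49, 8.29 and 8.31 in the DAPT pools, with 10 of 11 lowest in experiment 1. All 6 endothelial markers were lowest there as well. The 9 epithelial markers went the opposite way, with means of 10.21, 10.01 and 9.79 in the controls and 10.26, 9.91 and 9.57 in the DAPT pools, and 7 of 9 were highest in experiment 1. The experiment term had an adjusted p under 0.05 for 7 of 8 mesenchymal, 8 of 11 neuronal, 3 of 6 endothelial and 4 of 9 epithelial markers. Over all genes the share was 5.17%. *Celsr1*, *Celsr2*, *Vangl2* and *Scrib* were ordered like the epithelial markers and *Dact1* like the mesenchymal ones. The part of cell makeup in these values was not tested, and the culture time also differed between experiments, so the experiment and its culture time cannot be told apart.

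**Figure D3:**
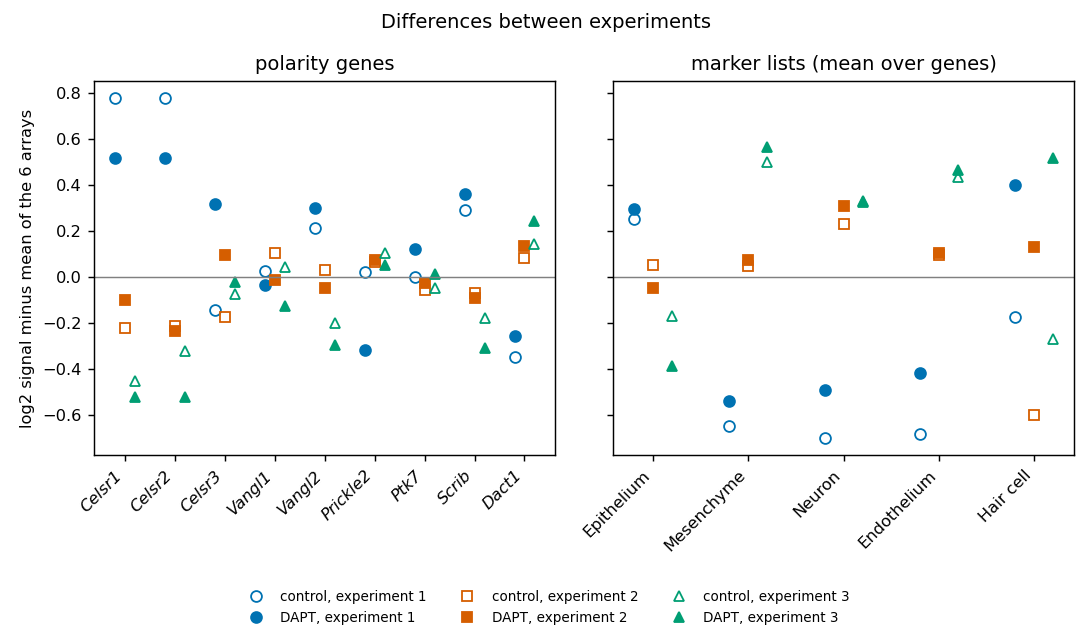
Log2 signal of each array minus the mean of the 6 arrays, for the PCP core genes on the left and for the mean of each marker list on the right, with open symbols for control and filled symbols for DAPT. Both pools of experiment 1 are high for *Celsr1*, *Celsr2* and the epithelial markers and low for *Dact1* and the mesenchymal, neuronal and endothelial markers.

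Markers of other cell types were also compared between DAPT and control. At an unadjusted p under 0.05, 4 of 6 pericyte markers were lower (median difference -0.55), 1 of 9 epithelial markers was lower (*Krt8*, -0.28), 1 of 6 endothelial markers was higher (*Kdr*, 0.24), 1 of 5 glial markers was higher (*S100b*, 0.31), 1 of 2 erythroid markers was lower (*Hbb-y*, -0.31), and 0 of 8 mesenchymal, 0 of 11 neuronal and 0 of 6 macrophage markers differed. Over all genes, 5.27% were higher and 2.59% lower at that threshold. None of these markers passed an adjusted p of 0.05, and no other gene did.

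The wider polarity pathway was read from 7 further lists that held 83 genes, of which 76 were measured. At an unadjusted p under 0.05, 0 of the 76 were higher in DAPT and 2 were lower, beside 5.27% and 2.59% of all genes. The count of lower genes is near its share and does not set the lists apart. The count of higher genes, 0, is below its share, and this gap was not tested. The 76 genes had a median difference of 0.00, and their differences ran from -0.30 to 0.18. None had an adjusted p under 0.05, which held for every gene on the arrays. The partners of Vangl at the junction, 12 Frizzled, Dishevelled and related core genes, had differences between -0.11 and 0.13 with a median of 0.04, and none passed the unadjusted test. The same held for 5 Fat and Dachsous cadherin genes (median 0.06), 13 genes of Scribble partners and apical complexes (median -0.01), 9 genes of hair bundle orientation (median -0.03) and 7 cilia genes with polarity phenotypes (median 0.00).

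*Wnt7a*, a Wnt ligand made by the cochlear epithelium, was 1 of 15 Wnt ligands and co-receptors below the unadjusted threshold. Its signals were 9.49, 8.89 and 8.83 in the controls and 9.12, 8.73 and 8.51 in the DAPT pools, lower in each experiment although the groups overlapped (-0.28, SE 0.08, unadjusted p = 0.0126, adjusted p = 0.435). *Daam2*, a formin that links Dishevelled to actin, was 1 of 15 polarity effectors below it, with 8.54, 8.33 and 8.46 in the controls and 8.04, 8.11 and 8.27 in the DAPT pools. Here the groups did not overlap (-0.30, SE 0.09, unadjusted p = 0.0177, adjusted p = 0.474). Without pairing, the unadjusted p was 0.237 for *Wnt7a* and 0.0224 for *Daam2*, and without pooling of variances in the paired comparison it was 0.0443 and 0.0912. When an experiment or array was left out, the difference ran from -0.45 to -0.08 for *Wnt7a*, the latter without the control pool of experiment 1, and from -0.36 to -0.20 for *Daam2*, the latter without experiment 1 (unadjusted p = 0.0585). Without experiment 3, *Wnt7a* had an unadjusted p of 0.0560. Both genes were named by the study from these arrays, so the values here are not independent evidence of a direction. For *Daam2* the study also reported RT-qPCR on cochlear epithelia of mutant mice. These were embryos of a later stage than the explants here, altered in vivo and not by DAPT. *Daam2* was lower with DnMAML1, which blocks Notch-driven transcription, and higher with the overexpressed Notch1 intracellular domain. The experiment term had an adjusted p under 0.05 for 5 of the 76 genes, *Fzd7*, *Wnt7a*, *Cplane2*, *Dlg5* and *Emx2*. Over all genes the share was 5.17%, so this count does not set the polarity genes apart. *Emx2*, which sets the orientation of hair bundles in vestibular organs, had experiment means of 10.85, 10.28 and 9.55 and a difference with DAPT of 0.00.

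**Figure D4:**
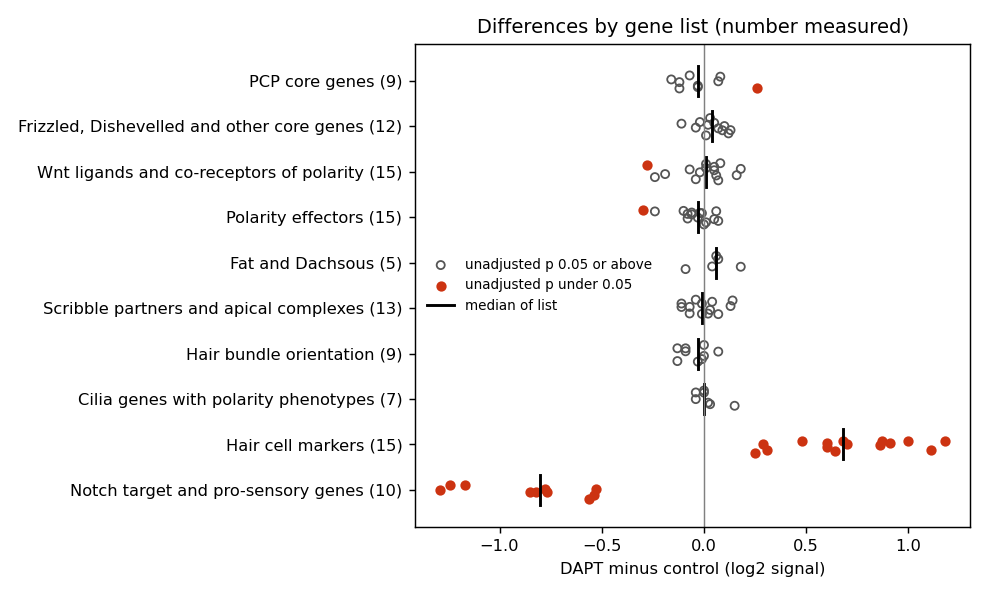
Difference between DAPT and control in log2 signal for every measured gene of the PCP core, of the 7 other polarity lists and of the HC and Notch lists, with filled points for an unadjusted p under 0.05 and a bar at each list's median. The polarity genes lie between -0.30 and 0.26, while HC markers lie between 0.25 and 1.18.

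Across the 6 arrays, the genes above the median signal most like *Vangl2* were *Pigt* (Pearson's r 0.998), *Rbm33* (0.998) and *Cramp1l* (0.997), and those most like *Celsr3* were *Kcnn1* (0.990), *Ppp1r37* (0.989) and *Pcsk4* (0.988). The arrays share experiments, and such values arise easily over 6 points when many genes are searched, so they are given as a description.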

How the data were processed

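Total RNA of 3 control and 3 DAPT pools was measured on Mouse Exon 1.0 ST arrays. The deposited values are log2 signals that the authors made with RMA in Partek, per the labels with build mm9, at the level of 115830 transcript clusters. These were used as deposited. The array medians lay between 6.297 and 6.364, and precision is set by having only 6 arrays. Clusters were named from the platform annotation with symbols updated by gene identifier. There were 25539 clusters with 1 gene, 2300 with several and 87991 unnamed, and the cluster with the highest mean signal was kept for each of 20259 genes. DAPT was compared with control in limma 3.58.1 (R 4.3.3) with a block for experiment, and p-values were adjusted over all genes by the Benjamini-Hochberg method. The block rests on the design, 1 control and 1 DAPT pool per experiment. Deviations from the group means correlated at 0.556, 0.434 and 0.513 within experiments and at no more than 0.00925 between them. As each group was centred on its own mean, positive values within experiments push those between them down, so the latter are not separate evidence. Nothing says whether pools shared animals, so p-values refer to these pools. For DAPT they rest on how the difference between the pools of 1 experiment varied across experiments, with variances partly pooled over genes. On simulated data with 20259 genes, the comparison of DAPT with control called 34.8% of changes of 0.6 log2 units and 95.4% of changes of 1.2 log2 units at an adjusted p under 0.05. The simulation drew normal noise with variances from the fitted prior. On the real arrays no gene passed, *Hey1* with -1.29 included, so these shares cannot be carried over to them. The study's own one-way comparison was run as an alternative. The members and lists were chosen with earlier results of these data known. Beyond the members, the genes named are those of each polarity list with an unadjusted p under 0.05 and 1 sign in all experiments, the genes most like *Vangl2* and *Celsr3*, and *Atoh1*, *Pou4f3*, *Hey1* and *Sox2*. *Krt8*, *Kdr*, *S100b*, *Hbb-y* and the genes named for the experiment term were chosen after their values were seen. The experiment term (moderated F-test) and the overlap of groups were added after the data were seen.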

Additional observations from a re-analysis of the deposited data

How the results depend on the processing

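No PCP core gene had an adjusted p under 0.05 for DAPT under any alternative. The 1 member higher at an unadjusted p under 0.05, *Celsr3*, was lost, leaving 0, with no replicate block, in the methods' one-way comparison, after median centring and with every cluster on its own, and the count ran from 0 to 1 when an experiment or array was left out. In the plain paired comparison the count stayed at 1 with another gene, *Dact1* (unadjusted p = 0.0330), while *Celsr3* was lost (unadjusted p = 0.163). The median difference of the members was -0.02, -0.03 and 0.01 without experiment 1, 2 and 3. With 1 array left out it ran from -0.13 (without the DAPT array of experiment 1) to 0.09 (without its control array), with -0.12 without the control and 0.08 without the DAPT array of experiment 3. *Celsr1* turned to 0.01 with array weights. Leaving out 1 experiment turned signs to 0.01 for *Vangl2* (range from -0.09), 0.02 for *Celsr1* (from -0.17) and 0.02 for *Scrib* (from -0.08). Leaving out 1 array, without the block, so that an experiment's level enters, turned *Vangl2* to between 0.07 and 0.12 (lowest -0.19), *Celsr1* to between 0.17 and 0.30 (lowest -0.35), *Celsr2* to between 0.06 and 0.19 (lowest -0.46), *Prickle2* to 0.00 (lowest -0.19), *Scrib* to between 0.01 and 0.12 (lowest -0.21), with 0.11 without the control array of experiment 1, and *Dact1* to between -0.08 and -0.02 (highest 0.23). Of the other polarity genes, those higher numbered 1 in the plain paired comparison, 2 with array weights and 1 with the mean of all clusters (0 to 3 on leaving out), and those lower 1 with no replicate block, 4 with array weights and 0 with every cluster on its own (0 to 2 on leaving out), with medians from -0.03 to 0.03. The experiment term called 4 members with a trend and robust prior, 5 with the signal filter at the median, 5 at the 25th percentile and 0 with every cluster on its own, and 0 to 2 on leaving out. Counted without adjustment over all genes, 1067 had a p under 0.05 and a higher value in DAPT and 525 a lower one, against 394 and 199 without the block, 490 and 215 in the one-way comparison, 881 and 716 after quantile normalization and 886 and 646 after median centring. At an adjusted p under 0.05, 30 genes were called with array weights, 26 with the median filter, 17 with the 25th percentile filter, and 6 each with the trend and with the mean of clusters. The causes were not tested.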
